A study of Drosophila melanogaster with 3 samples.

Results

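Of the 3319 reproducible Hey-bound regions of the Drosophila embryo, 370 had a non-coding RNA gene as their nearest annotated gene. These regions were chosen by position alone. The summit of a region had to lie within 5000 bp of a transcription start site (TSS), and the nearest TSS had to belong to a gene of the biotype ncRNA, which leaves out tRNA, snRNA, snoRNA, rRNA, miRNA and pseudogenes. Of the other regions, 2221 were nearest to a protein-coding TSS within the same limit, 63 to another kind of gene, and 665 had no TSS that close. The 370 regions lay at 270 different genes. By symbol 328 were nearest to genes named lncRNA:, 37 to antisense genes named asRNA:, 2 to Uhg genes, 2 to sncRNA genes and 1 to a sisRNA gene. The sncRNA genes are short, at 143 and 63 bp. The study assayed binding by ChIP-seq in 3 biological replicates of 1 group: embryos of both sexes, aged 6 to 24 h, from a transgenic line that stably expresses Hey with GFP at its C terminus. The age is that of the source name, because the separate age label holds no usable value. The free-text description calls each library an input control, whereas the assay title calls it a transcription factor ChIP and the antibody field names Hey. The libraries are described here by the assay title. Whole embryos were used, so the cells in which a region was bound are unknown, and with no untreated or second group every comparison is between regions of the same libraries. The lists give no read counts, so depth is unknown, and intervals cover counting error over regions, which are not independent where they overlap or share a gene.

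Hey is a basic helix-loop-helix factor with an Orange domain. The family acts mostly by repression, often downstream of Notch signalling, and recognises palindromic E-boxes (CACGTG) and the related class C site (CACGCG). Long non-coding RNAs of the fly include dosage compensation RNAs, stress-response RNAs and precursors that carry microRNAs or small nucleolar RNAs, but most annotated genes of the class have no described function. A region nearest to such a gene may act on that gene, on a coding gene further away, or on neither, and the nearest TSS is used here as an address and not as a target.

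The sites below show the DNA at the summits of the strongest regions near non-coding RNA genes. Of the 20 highest such regions, they are the 8 that lie on the arms 2L, 3L, 3R and X and have a CACGTG or CACGCG core within 100 bp of the summit, each with its core nearest to the summit. Cores of the 20 on the remaining arm are not printed. Sequence is from the release 6 RefSeq assembly, which shares coordinates with dm6, reads 5′ to 3′ on the strand given, and has every such core in capitals.
lncRNA:CR44862: caaagtgtgggtCACGTGtcgcatattaag
lncRNA:CR44739: acgtgcaggatcCACGTGacttggtcggtg
lncRNA:CR45292: tacacgcctccgCACGCGtcacacgaaagc
lncRNA:CR44526: aagattgtgcggCACGTGccgctgccggcg
lncRNA:CR45550: accgcacgccggCACGCGttaccgctttgg
lncRNA:CR46220: ttccagcaaggaCACGTGccggtcggcgat
lncRNA:CR44737: gagggagtggtgCACGCGccggacacgcag
lncRNA:CR44537: caaactcccggcCACGTGgccaccttccgt
The core of lncRNA:CR44862 spans 2L:15442050-15442055 and contains the summit itself. The core near lncRNA:CR44739 lies at 2L:18897350-18897355, 24 bp from its summit, and that near lncRNA:CR45292 at 2L:19012048-19012053, 6 bp away. Those of lncRNA:CR44526 (3L:8696699-8696704) and lncRNA:CR46220 (3R:30904187-30904192) also contain the summit. The cores near lncRNA:CR45550 (3R:8225741-8225746, minus strand), lncRNA:CR44737 (2L:18896583-18896588) and lncRNA:CR44537 (3L:810389-810394) lie 19, 12 and 51 bp away. All but lncRNA:CR45550 are printed on the plus strand. The highest region of all those near non-coding RNA genes had neither core, and the 121 bases around its summit, 2L:14024013-14024133 on the plus strand, are shown for contrast, with no capitals because no core was found.
lncRNA:CR31840: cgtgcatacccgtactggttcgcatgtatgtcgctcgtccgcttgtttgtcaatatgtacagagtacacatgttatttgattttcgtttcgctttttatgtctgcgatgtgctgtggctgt

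The strongest regions near non-coding RNA genes were among the strongest in the genome. They took 4 of the 20 highest and 13 of the 100 highest regions of the reproducible list, of which they make up 11.1% in all. The 100 highest held 3.51% of them and 3.06% of the regions near coding genes, a difference of 0.452 points (Newcombe interval -1.20 to 2.94). The signal value used for these ranks is the authors' caller's own, on an unstated scale, and orders regions only within a list. The region at lncRNA:CR31840 (FBgn0051840, 2L:14023722-14024099, minus strand) had its summit at position 14024073, 26 bp inside the gene and in its exon. Its signal was 1462, rank 5 in the reproducible list, and it ranked 26, 3 and 14 in replicates 1, 2 and 3. It was thus among the highest 30 regions of every replicate. The region at lncRNA:CR44862 (FBgn0266156, 2L:15441601-15442314, plus strand) had its summit in the exon, 451 bp from the TSS. Its signal was 1364 (rank 9), and it ranked 64, 8 and 2 in the replicates. Replicate 1 placed it lower than the other two did.

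Near lncRNA:CR44739, a gene at 2L:18899564-18900494, an intergenic summit 3115 bp downstream of the TSS had a signal of 1316 (rank 12), with replicate ranks of 40, 13 and 5. The nearest coding gene was tup, which encodes a LIM homeodomain factor, at 16118 bp. A further summit nearby, in the exon of lncRNA:CR44737, had a signal of 703 and replicate ranks of 165, 58 and 131. These 2 neighbouring summits thus carried different cores, CACGTG and CACGCG. The region at lncRNA:CR45292 (2L:19011902-19012254) had its summit in the exon, 140 bp from the TSS, a signal of 1268 (rank 16) and replicate ranks of 34, 11 and 11. At lncRNA:CR44526 (3L:8692703-8693191) the summit lay 3997 bp downstream, with a signal of 957 (rank 30) and replicate ranks of 12, 94 and 106. Here replicate 1 gave the highest rank. The nearest coding gene was hry (hairy), a pair-rule gene of the same protein family as Hey, 20745 bp away.

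The remaining 15 of the 20 strongest had reproducible ranks from 33 to 144. At asRNA:CR45928 the summit lay 77 bp from its TSS and also 106 bp from that of eIF6, a ribosome assembly factor, so the 2 genes cannot be told apart by distance. That region had a signal of 950.0 and replicate ranks of 29, 45 and 99. At lncRNA:CR44757 the replicates differed most. The region was rank 2 in replicate 1 but 785 in replicate 2 and 625 in replicate 3, with a signal of 873. The summit of Uhg1, a host gene of small nucleolar RNAs, lay 47 bp upstream of its TSS with a CACGTG within 100 bp, a signal of 675 and replicate ranks of 189, 75 and 90. At lncRNA:CR31044, the host gene of mir-279 and mir-996, the summit lay 114 bp upstream of the TSS with a signal of 613 and replicate ranks of 162, 123 and 158. Near lncRNA:CR45643, 3170 bp from the transcriptional coregulator gene tara, the signal was 648 and the replicate ranks 56, 247 and 233. Near lncRNA:CR44339, 4222 bp from the Polycomb group gene Psc, the signal was 593 and the ranks 554, 118 and 74. A second region of lncRNA:CR45292, 3945 bp downstream of the TSS, had a signal of 604. The others lay at lncRNA:CR45550 (887), lncRNA:CR44761 (715), lncRNA:CR46220 (714), lncRNA:CR44619 (695), lncRNA:CR44537 (653), lncRNA:CR44852 (613) and lncRNA:CR45888 (574), with the signal in parentheses. Of the 20, 7 had a CACGTG, 3 a CACGCG and 10 neither, and 10 had the summit within 500 bp of the TSS. All except lncRNA:CR44619, which had no region in replicate 3, were recovered among the 3319 highest regions of every replicate.

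**Figure D1:**
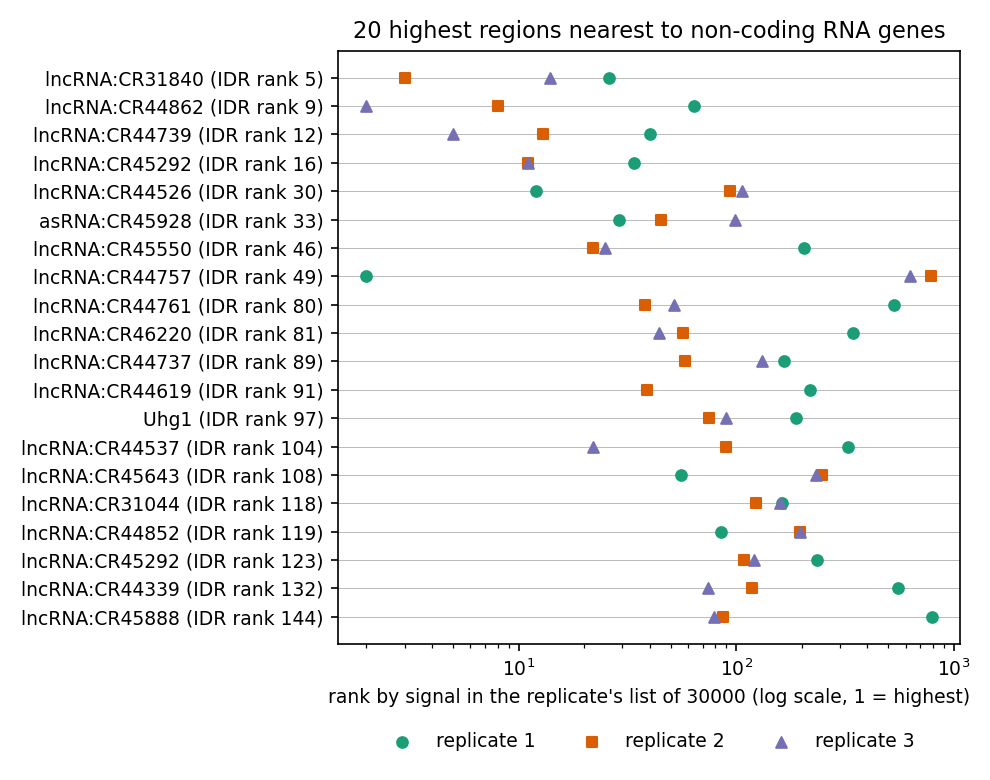
Rank by signal in each replicate's list (horizontal, log scale, 1 is highest) of the 20 highest regions nearest to non-coding RNA genes, with the reproducible (IDR) rank beside each gene. Markers stand for replicates. lncRNA:CR44757 spans ranks 2 to 785, and lncRNA:CR44619 has no replicate 3 marker.

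Non-coding RNA genes had a reproducible Hey region about as often as any gene did. Of the 2515 annotated non-coding RNA genes, 270 (10.7%, 95% Wilson interval 9.59 to 12.0) were nearest to at least 1 region, against 10.6% of all 18164 genes and 1611 of 13945 protein-coding genes (11.6%, 11 to 12.1). Genes with 1 region numbered 208, genes with 2 numbered 39, and genes with 3 or more numbered 23. Among non-coding RNA genes that overlap no coding gene, 171 of 1385 had a region (12.3%, 10.7 to 14.2). Of those that overlap a coding gene on the opposite strand 79 of 837 did (9.44%, 7.64 to 11.6), and of those on the same strand 16 of 247 did (6.48%, 4.03 to 10.3).

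Among regions nearest to either class, the non-coding share was 14.3% (13.0 to 15.7) in the reproducible list. The same share was 14.6% for every 100th base of the 6 chromosome arms and 12.0% for annotated TSS positions, so the reproducible regions were close to genome positions. It was higher among weak regions, at 20.8% (19.1 to 22.6) of as many of the lowest pooled regions. In groups of 3000 pooled regions it went from 14.0% (12.7 to 15.5) in the highest group to 21.0% (19.2 to 22.9) in the lowest. In the replicates it was 11.3%, 16.2% and 15% among the 3319 highest regions against 17.2%, 19.1% and 16.3% among the 3319 lowest. The share among the highest regions was lower in each replicate, by a mean of 3.38 percentage points (14.1% ± 2.56 against 17.5% ± 1.41, SD, n = 3, exact permutation test, two-sided p = 0.1). With 3 against 3 values, 0.1 is the smallest p that this test can give. Without replicate 1 the difference was -2.11 points. Within the reproducible list, the share in 5 equal groups by rank was 13.5%, 13.5%, 14.7%, 13.8% and 16.1% from the highest to the lowest, with overlapping intervals.

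**Figure D2:**
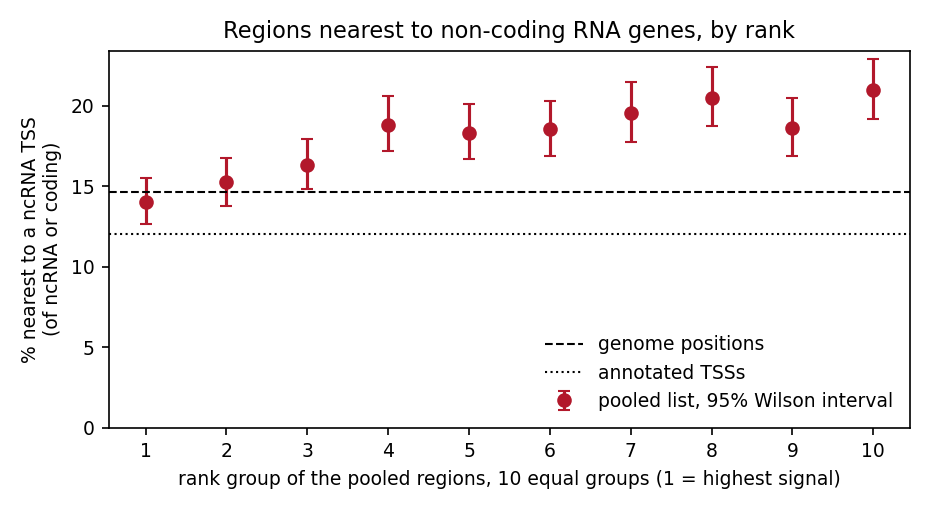
Share of regions nearest to a non-coding RNA TSS among those nearest to a non-coding RNA or coding TSS (vertical, %), in 10 groups of 3000 pooled regions by signal (horizontal, 1 is highest). Bars are 95% Wilson intervals and the lines mark genome positions and annotated TSSs, and the share goes from 14.0% to 21.0%.

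At the median, signal near non-coding RNA genes was close to that near coding genes. The median signal was 173 near non-coding RNA genes and 176 near coding genes, and the median reproducible rank 1663 and 1611. The median rank percentile among the 3319 highest regions, where 100 is the lowest signal, was 46.8, 50.9 and 49.1 near non-coding RNA genes and 50.08, 47.0 and 49.98 near coding genes in replicates 1, 2 and 3. The mean difference was -0.0904 percentile points (48.9 ± 2.07 against 49.0 ± 1.73, SD, n = 3, exact permutation test, two-sided p = 0.9), and its sign differed between replicates. It was 6.08 among the 1000 highest and 3.25 among the 10000 highest regions of each list, that is, lower signal near non-coding RNA genes (p = 0.1 in both, exact permutation test).

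Summits near non-coding RNA genes lay further from the TSS than those near coding genes. The distance ranged from 2 to 4993 bp with a median of 1107 bp, against a median of 531 bp for coding genes. Of the 370 summits 119 (32.2%, 27.6 to 37.1) lay within 500 bp, against 49.4% (47.3 to 51.5) for coding genes, a difference of -17.2 percentage points (Newcombe interval -22.2 to -11.9). Within 100 bp the shares were 7.57% and 21.1%. In the replicates, 37.9%, 29.3% and 29.6% of the regions near non-coding RNA genes lay within 500 bp, against 54.9%, 46.5% and 50.05% near coding genes. The groups did not overlap, with a mean difference of -18.3 points (32.2% ± 4.88 against 50.5% ± 4.24, SD, n = 3, exact permutation test, two-sided p = 0.1). Replicate 1 had the highest share in both classes. Distance to the nearest TSS is also what the rule uses, so the choice of regions helps to set this difference. The same share over weak regions or genome positions is not given here, so the difference cannot be credited to Hey binding. Summits fell on both sides of the TSS, 192 upstream and 178 at it or downstream.

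**Figure D3:**
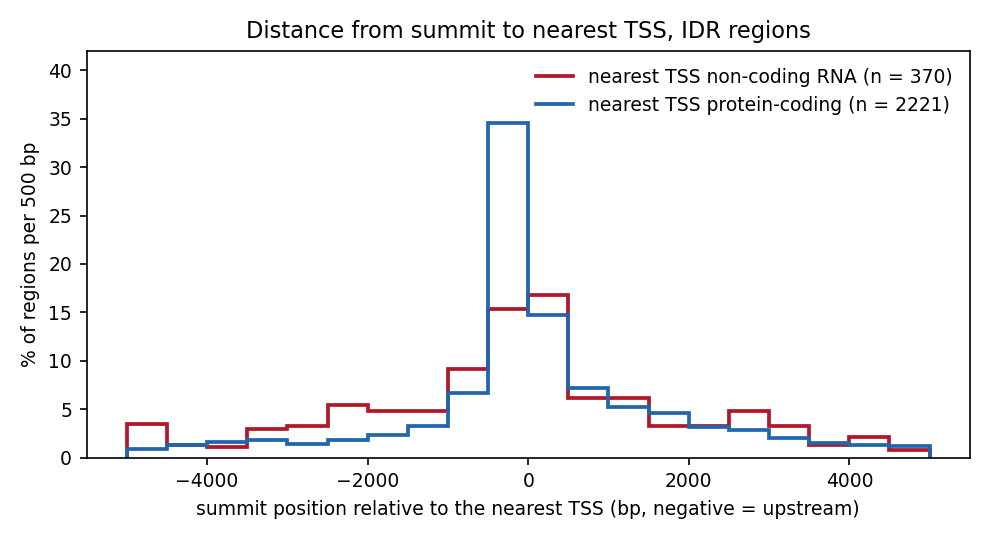
Position of the summit relative to the nearest TSS (horizontal, bp, negative is upstream) for reproducible regions nearest to a non-coding RNA gene (n = 370) or a coding gene (n = 2221), as the share of each class per 500 bp (vertical, %). The coding class peaks just upstream of the TSS, and the non-coding class is flatter, with medians of 1107 and 531 bp.

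The palindromic E-box was more frequent at summits near non-coding RNA genes than near coding genes, whose summits lay closer to the TSS. Regions of neither class are not compared here, so the site is not shown to be particular to non-coding RNA genes. A CACGTG lay within 100 bp of the summit in 75 of 370 regions (20.3%, 16.5 to 24.7), against 281 of 2221 near coding genes (12.7%, 11.3 to 14.1) and 17.1% of all 3319 reproducible regions, a share that includes the regions far from any TSS. The difference between the classes was 7.62 percentage points (Newcombe interval 3.57 to 12.2). In replicates 1, 2 and 3 the share was 16.4%, 17.5% and 19.4% near non-coding RNA genes and 9.60%, 12.2% and 12.9% near coding genes. The groups did not overlap, and the mean difference was 6.2 points (17.8% ± 1.50 against 11.6% ± 1.73, SD, n = 3, exact permutation test, two-sided p = 0.1). It was smaller with shorter limits, at 4.07 points for 2000 bp (p = 0.3) and 1.71 for 1000 bp (p = 0.4, both by the exact permutation test), and it was 2.14 points over the 10000 highest regions of each list. The E-box share was 3.11% in the flanks, equally long windows placed 400 to 600 bp from the summits near non-coding RNA genes, so it was 6.52 times as high at the summit as beside it, against 5.46 times for coding genes. Among regions with an E-box, a G stood next to the core on at least 1 side in 66.7% (55.4 to 76.3) near non-coding RNA genes and in 67.6% (61.9 to 72.8) near coding genes.

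E-boxes were most frequent in both classes at the summits furthest from the TSS. Near non-coding RNA genes they were found in 2 of 28 regions within 100 bp of the TSS (7.14%), 10 of 91 at 101 to 500 bp (11%), 10 of 57 at 501 to 1000 bp (17.5%), 16 of 71 at 1001 to 2000 bp (22.5%) and 37 of 123 at 2001 to 5000 bp (30.1%). For coding genes the shares in these classes were 7.04%, 7.80%, 15%, 14.2% and 22.0%. Beyond 500 bp the E-box share was 25.1% (20.1 to 30.8) near non-coding RNA genes and 17.7% (15.6 to 20.05) near coding genes, a difference of 7.39 points (1.91 to 13.5). Within 500 bp it was 10.1% and 7.47%, a difference of 2.61 points whose interval (-1.94 to 9.47) includes 0. In the replicates the shares beyond 500 bp were 23.4%, 20.5% and 23.8% against 14.2%, 17.2% and 18.5% (22.5% ± 1.79 against 16.6% ± 2.21, SD, n = 3, exact permutation test, two-sided p = 0.1). When the limit was 1000 bp instead of 5000 bp, this last difference turned to -0.817 points, over the few regions from 501 to 1000 bp, and it was 1.72 points over the 10000 highest regions of each list.

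**Figure D4:**
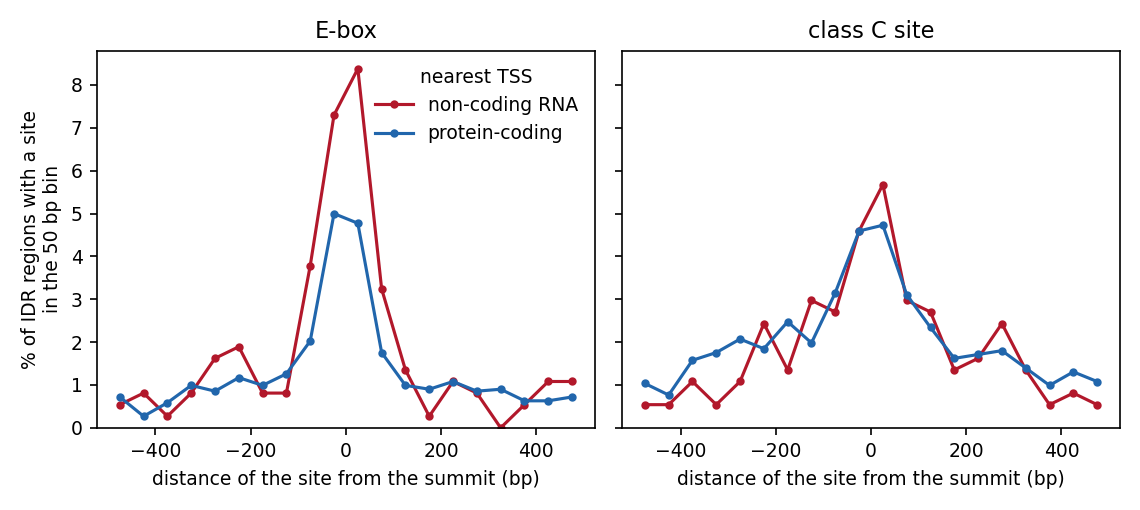
Share of reproducible regions with an E-box (left) or a class C site (right) in each 50 bp bin (vertical, %) by distance from the summit (horizontal, bp), for regions nearest to non-coding RNA and coding genes. E-boxes in the bins beside the summit reach 8.38% near non-coding RNA genes and 4.998% near coding genes.

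The class C site did not follow the E-box. A CACGCG lay within 100 bp of 50 summits near non-coding RNA genes (13.5%, 10.4 to 17.4), against 14.5% near coding genes and 15% of all reproducible regions, a difference of -0.984 points (-4.45 to 3.12). In the replicate lists the sign was the other way, with 14.8%, 14.0% and 14.7% near non-coding RNA genes and 12.6%, 12.0% and 13.1% near coding genes (14.5% ± 0.437 against 12.6% ± 0.565, SD, n = 3, exact permutation test, two-sided p = 0.1). No direction can therefore be given for this site. The share at the summits near non-coding RNA genes was 3.33 times that of the flanks. Either core was found in 117 of the 370 regions (31.6%) and both in 8. The remaining regions had neither, as at lncRNA:CR31840.

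**Figure D5:**
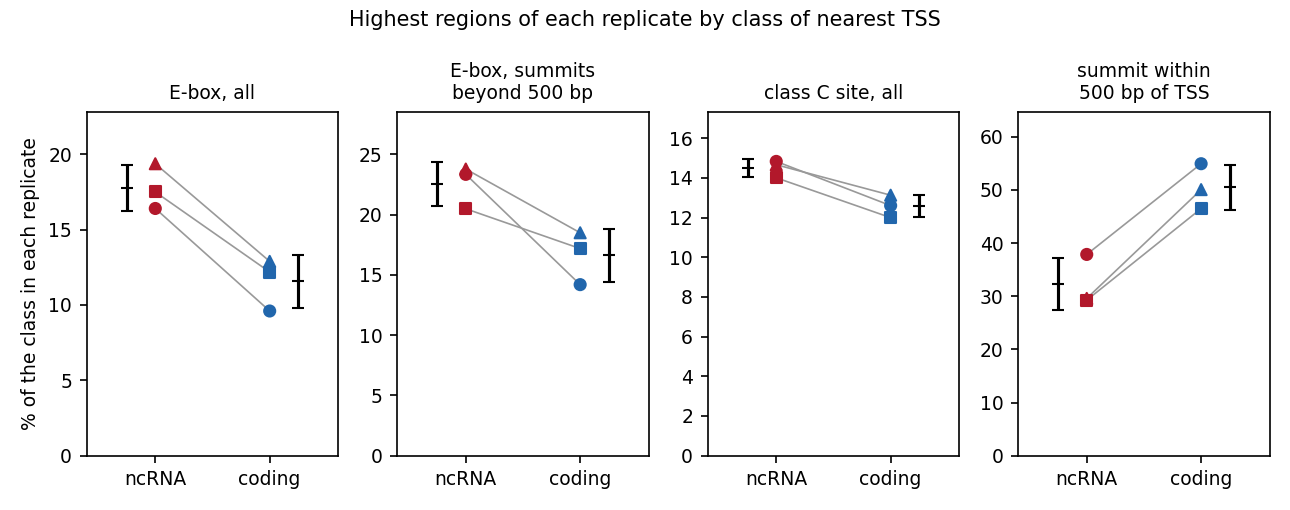
Share of each class (vertical, %) among the 3319 highest regions of each replicate with an E-box, with an E-box among summits beyond 500 bp, with a class C site, and with the summit within 500 bp of the TSS. Symbols joined by a line are 1 replicate (circle 1, square 2, triangle 3), and bars show mean ± SD. E-box shares of 16.4% to 19.4% near non-coding RNA genes lie above the 9.60% to 12.9% near coding genes.

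Other short motifs gave smaller or no differences. The N-box CACNAG, another site of this protein family, was found in 32.4% of regions near non-coding RNA genes and 25.98% near coding genes (difference 6.45 points, 1.52 to 11.7). Shares were 4.86% and 6.93% for GAGAGAG, the element of GAGA factor, 3.78% and 5.90% for the GATA motif AGATAAG, 0.541% and 1.98% for TATCGATA, the core promoter element of DREF, and 9.73% and 10.1% for the repeat CACACACA. The intervals of these last 4 differences included 0. All motifs were searched on both strands within 100 bp of the summit.

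Base composition moved with the class. The median GC content within 100 bp of the summit was 48.8% near non-coding RNA genes and 44.8% near coding genes. In the replicates the mean GC content was 48.4%, 47.2% and 47.1% against 46.0%, 43.3% and 43.2% (47.5% ± 0.714 against 44.2% ± 1.57, SD, n = 3, exact permutation test, two-sided p = 0.1). With regions divided at their common median of 45.3% GC, a division chosen after the E-box shares were seen, the E-box share was 12.6% (7.91 to 19.5) against 6.57% (5.29 to 8.14) in the lower part and 24.3% (19.3 to 30.0) against 19.4% (17.2 to 22.0) in the upper part. The intervals overlapped in the upper part and narrowly in the lower. In the replicates, E-box shares in the lower part were 10.2%, 9.70% and 8.59% near non-coding RNA genes against 6.00%, 6.02% and 6.90% near coding genes, and in the upper part 20.5%, 21.4% and 24.8% against 13.7%, 19.3% and 19.8% (exact permutation test, n = 3, two-sided p = 0.1 in each part). The replicate groups did not overlap in either part, so the E-box difference kept its direction within each. Among reproducible summits beyond 500 bp, the share was 15.6% (9.15 to 25.3) against 9.21% (7.02 to 12.0) in the lower part. In the upper part it was 29.3% (23.1 to 36.5) against 25.04% (21.7 to 28.7). These intervals overlapped in both parts. GC content can still differ between the classes within a part, and whether it accounts for the E-box difference was not tested.

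Intergenic summits were the largest class among regions near non-coding RNA genes. Of the 370 summits, 170 (45.9%, 40.9 to 51.0) were intergenic, 102 (27.6%) in an exon of a non-coding RNA gene, 77 (20.8%) in an intron of a coding gene, 11 in an intron of a non-coding RNA gene only, 6 in a coding exon and 4 in a UTR exon. A summit in an exon of a non-coding RNA gene was counted there even where it also lay in an intron of a coding gene. The 77 therefore leave out such summits. Of regions nearest to coding genes, 31.0% were intergenic and 50.2% in an intron of a coding gene, classes that the choice by nearest TSS helps to set. The summit lay in an exon of its own nearest gene in 93 regions, in its intron in 12 and outside it in 265. For 241 regions the nearest non-coding RNA gene overlapped no coding gene, for 103 it overlapped one on the opposite strand, for 20 on the same strand and for 6 on both. By arm, 98 regions were on 2L (26.5%, against 19.7% of regions near coding genes, a difference of 6.81 points, 2.24 to 11.8), 68 on 2R, 87 on 3L, 74 on 3R and 43 on X. Of the 98, 13 lay in a single run described below, so the interval is too narrow. The share of non-coding RNA genes on each arm is not given here. No region was on chromosome 4, where 6 regions were nearest to coding genes.

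Regions near non-coding RNA genes recurred across the replicates much as those near coding genes did. Each replicate's 3319 highest regions were searched for a summit no more than 100 bp away. All 3 replicates held one for 129 of the 370 (34.9%, 30.2 to 39.9), against 37.0% near coding genes (difference -2.10 points, -7.20 to 3.27) and 36.5% of all reproducible regions. A further 151 were found in 2 replicates, 80 in 1 and 10 in none. Replicate 1 recovered 229 of them (61.9%, against 70.6% near coding genes), replicate 2 279 (75.4%, against 69.4%) and replicate 3 261 (70.5%, against 66.3%). The share was thus lower than that of coding genes in replicate 1 and higher in replicates 2 and 3. Found in both replicates 2 and 3 were 58.1% near non-coding RNA genes and 52.1% near coding genes, a difference of 6.01 points (0.523 to 11.4) that was reached only without replicate 1. Replicate 1 also had the highest share of summits within 500 bp of a TSS, and its part in this difference was not tested.

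Some non-coding RNA genes stood in runs of regions. The longest run, chosen after the values were seen, held 13 regions, counted by summit, over 12910 bp on 2L, from 19012042 to 19024952. They were nearest to lncRNA:CR45292 (6 summits, the most of any gene), lncRNA:CR44184 (4) and lncRNA:CR43700 (3). Some summits share an interval, so the count by interval is lower. The interval 2L:19011705-19013350 holds the summits of ranks 16, 395 and 861, and 2L:19019446-19020189 those of ranks 379 and 889. Signals ranged from 116 to 1268 with a median of 260, and 8 of the 13 were found in all 3 replicates. None of the 13 had an E-box and 3 had a class C site. The nearest coding genes were robl37BC, of the roadblock family of dynein light chains, and CG15172, at distances of 1027 to 4988 bp.

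Near Eip75B, which encodes an ecdysone-induced nuclear receptor, 5 regions flanked lncRNA:CR45393 (3L:17947192-17947700, minus strand) over 4917 bp, at 11318 to 16235 bp from the nearest Eip75B TSS. Each had a core within 100 bp of the summit, CACGCG in 4 of them and CACGTG in the other, and the sites are shown because no other of the 5 genes with the most regions had a core in every region. They are given from the highest signal to the lowest, each with the core nearest to the summit, whose coordinates are given, and with every core in the stretch in capitals. The first stretch holds 2 E-boxes.
Region 1, 3L:17945563-17945568, plus strand: gcaccCACGTGgCACGTGgcagataacggg
Region 2, 3L:17950476-17950481, plus strand: cactgttatctaCACGCGgcacacacgctg
Region 3, 3L:17949336-17949341, minus strand: gcttgatgagagCACGCGctgaaataaaaa
Region 4, 3L:17946576-17946581, minus strand: tgacaagtgttgCACGCGcctgcccacggg
Region 5, 3L:17948415-17948420, plus strand: gttggtgctgagCACGCGgcacataaatga
The first had a signal of 418 and replicate ranks of 134, 742 and 742. The second had a signal of 305 and ranks of 566, 793 and 1272. The other 3 had signals of 275, 174 and 119, and only the first 2 were found in all 3 replicates.

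The other genes with the most regions were less uniform. lncRNA:CR44761, whose nearest coding gene RYBP encodes a Polycomb-associated protein, had 5 regions with signals of 119 to 715, of which 1 had a class C site. lncRNA:CR43297 on X had 5 regions with signals of 133 to 480, of which 1 had an E-box. lncRNA:CR44526, near hry, had 4, with signals of 135 to 957. Its strongest region was the only one of the 4 found in all 3 replicates.

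Non-coding RNAs with a described function had a region in 4 cases. Of 32 names listed, 24 were in the annotation, so the share was 16.7% (6.68 to 35.9), an interval that includes the 10.7% of all non-coding RNA genes. Hsromega, the heat shock RNA that organises nuclear speckles, had a summit in its exon 1088 bp from a TSS, a signal of 270 and replicate ranks of 1248, 570 and 622. acal, a regulator of JNK signalling in dorsal closure, had a signal of 141 and replicate ranks of 2839, 3549 and 3972, so it was found in 1 replicate only. The small nucleolar RNA hosts Uhg1 and Uhg4 had summits 47 and 54 bp upstream of their TSS, and Uhg4 had a signal of 519 and replicate ranks of 371, 134 and 297. These 2 were the only ones with a region among 10 hosts of snoRNA genes. Of the listed names, the dosage compensation RNAs roX1 and roX2, the bithorax complex RNAs bxd, iab4 and iab8, the neuroblast RNA cherub and let7C had none. The list does not hold every RNA of the bithorax complex. The gene asRNA:PS4, not on it, had 1 region with a signal of 154 and a class C site. Its nearest coding gene was Ubx, at 18731 bp.

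Host genes of microRNAs had regions more often than other non-coding RNA genes, but so they did among weak regions. Of 37 hosts, 10 had a region (27.0%, 15.4 to 43.0), against 260 of 2478 other non-coding RNA genes (10.5%, 9.35 to 11.8). Hosts are longer, with a median of 6436 bp against 701 bp and a mean of 1.65 TSSs a gene against 1.06. Among the other non-coding RNA genes at least as long as the lower quartile of hosts, 27 of 211 had a region (12.8%, 8.95 to 18.0). In the replicates 24.3%, 24.3% and 21.6% of hosts were nearest to one of the highest regions, against 9.24%, 10.6% and 10.4% of the others (23.4% ± 1.56 against 10.1% ± 0.732, SD, n = 3, exact permutation test, two-sided p = 0.1). Among the lowest regions the share of hosts was 24.3% in each replicate, against 12.7%, 13.3% and 11.9% of the others. The strongest host regions were those of lncRNA:CR31044 given above, of asRNA:CR46194 (mir-281-1 and mir-281-2, signal 297, ranks 809, 835 and 572), of Hsromega, which holds mir-4951, and of lncRNA:CR43651 (mir-14, signal 254). The lncRNA:CR43651 region had ranks of 246 and 2528 in replicates 1 and 2, and replicate 3 had no summit within 100 bp of it. The host of bantam, a microRNA that promotes growth and blocks cell death, had 3 regions, with signals from 130.1 to 175.

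Transcription factor genes were more frequent among the coding neighbours of these regions than at regions nearest to coding genes, but the shares overlapped those of weak regions. The nearest coding TSS lay at a median of 4730 bp from summits near non-coding RNA genes, within 500 bp for 16 of them and within 10000 bp for 301. It belonged to a gene of a list of transcription factors, of which 313 are annotated, for 61 of the 370 regions (16.5%, 13.1 to 20.6), spread over 37 factor genes. Of regions nearest to coding genes 9.59% (8.43 to 10.9) were at such a gene, while the list makes up 2.24% of coding genes. That last value is a share of genes and not of positions, and the share over genome positions is not given here. In the replicates the shares were 12.9%, 16.3% and 15.7% near non-coding RNA genes and 7.80%, 10.5% and 9.57% near coding genes (15% ± 1.78 against 9.29% ± 1.37, SD, n = 3, exact permutation test, two-sided p = 0.1). Among the lowest regions near non-coding RNA genes the shares were 7.07%, 14.2% and 7.76% (9.69% ± 3.96, n = 3, exact permutation test against the highest, two-sided p = 0.2). Each was below the share among the highest regions of the same replicate, but the groups overlapped. One factor gene can be counted for several regions, and the list does not hold every transcription factor.

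By role, these neighbours included patterning and cell fate factors. Eip75B had 5 regions, hry 4, and Ets65A, an ETS-domain gene, 4 near lncRNA:CR46001 with signals up to 517. GATAe, an endodermal GATA factor, the zinc finger gene chinmo and slbo, a C/EBP gene of border cell migration, had 3 each, with highest signals of 291, 327 and 266. The homeobox gene otp had 2 regions near asRNA:CR43160, 4119 and 4324 bp away, both with an E-box and with signals up to 458. The homeobox genes Antp and mirr also had 2 each, with no E-box or class C site and signals of at most 171 and 133. Of the 61 regions 13 had an E-box and 10 a class C site. A listed Notch pathway gene was the nearest coding gene of 1 region (0.270%, 0.0477 to 1.51). The share was 0.810% of regions nearest to coding genes and 0.229% of coding genes. A ribosomal protein gene was that of none (0 to 1.03%), against 50 (2.25%) of the regions nearest to coding genes and 0.660% of coding genes. Both intervals include the share of coding genes.

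The regions on either side of the 5000 bp limit had signals from 128 to 193. The last 3 regions inside it were those of lncRNA:CR44800 (4879 bp, signal 193), lncRNA:CR45102 (4913 bp, signal 160) and lncRNA:CR44017 (4993 bp, signal 190.2). The first 3 outside were those of lncRNA:CR45726 (5021 bp, signal 128), lncRNA:CR45325 (5029 bp, signal 136) and asRNA:CR44984 (5032 bp, signal 138). In all, 136 regions had a non-coding RNA gene as their nearest gene at more than 5000 bp and were left out.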

How the data were processed

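Regions of Hey-GFP ChIP-seq in whole embryos, 3 replicates of 1 group, were taken as the authors deposited them. The assembly named in the labels was dm6. According to the listings deposited beside the lists, each replicate list was called from its own alignment with a control, the pooled list from all 3, and the reproducible list was derived from these by the irreproducible discovery rate (IDR). Neither caller nor IDR threshold is given in the sources used here. The signal value deposited by the authors has no stated scale and ranks regions within a list only, and the summit is the authors' offset from the region start.

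TSSs were those of all transcripts of Ensembl release 115 (BDGP6.54), without transposable elements: 18164 genes and 23581 TSS positions. Ties between classes went to coding genes, 5 in all. Of the 370 regions, 23 have the same interval as another region but their own summit. Shares over regions have 95% Wilson intervals, and their differences Newcombe intervals. Each replicate's 3319 highest regions were classed by the same rule and compared by a two-sided exact permutation test over 3 values a class, whose smallest p is 0.1. No GEO label says more of the replicates than that they are biological. The regions, lists and tests were chosen with earlier results of these data known. Named genes are those of the 20 highest regions, the 5 genes with the most regions, all non-coding RNAs with a described function that have a region, up to 4 hosts by signal and 3 regions on either side of the limit. Genes named as coding neighbours, the runs, the bantam host, asRNA:PS4 and the divisions by GC content, neighbour and weak regions were chosen after values were seen. Tools were Python 3.11.15, pandas 2.3.3, numpy 2.4.6, scipy 1.17.1 and bedtools 2.31.1, and the computations were tested on simulated data.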

Additional observations from a re-analysis of the deposited data

How the results depend on the processing

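Of 100 alternatives to 8 results, 87 kept direction, or stayed within the spread for values with no test. These counts, and those per result below, include the sign-flip test given at the end of this paragraph, which cannot change a difference. No exact permutation p could pass 0.05 under any of the alternatives. In the replicate lists, the E-box and class C differences over all regions kept their sign in all 14 alternatives each, and the lower share within 500 bp in all 12, but sizes moved. The E-box difference of 6.2 points was 1.71 with a limit of 1000 bp, 4.07 with 2000 bp and 2.14 over the 10000 highest regions, and 5.90 to 6.64 without each replicate. The class C difference of 1.92 points was 0.437 over the 10000 highest regions, and 0.462 and 0.453 with sites within 50 and 200 bp. In the reproducible list it had the other sign, at -0.984 points, so no direction can be given for it. The share within 500 bp differed by -10.7 points with a limit of 1000 bp. The non-coding share of the highest regions less that of the lowest was -5.52 points with a limit of 1000 bp, -2.20 over the 10000 highest and lowest, and -4.41 to -2.11 without each replicate. The non-coding share of reproducible regions was 11.1% with a limit of 1000 bp, 12.4% with 2000 bp, 12.9% with lncRNA: genes only and 18.2% with 1 TSS a gene. With each replicate left out in turn, it was 13.1% to 15.7% of the reproducible regions found in both remaining replicates. The reproducible list itself was not remade. The E-box difference beyond 500 bp was -0.817 points with a limit of 1000 bp and 1.72 over the 10000 highest regions. The rank percentile difference was 1.73 with a limit of 2000 bp, 0.979 with lncRNA: genes only, 0.261 with 1 TSS a gene, 6.08 and 3.25 with the 1000 and 10000 highest regions, and -2.09 to 1.50 without each replicate, so it has no direction. The difference in the share found in every replicate was -4.48 to 6.01 points without each replicate. The causes were not tested. There is 1 group, so no groups could be paired. The classes within each replicate list were also compared as pairs by an exact sign-flip permutation test, whose smallest p is 0.25, and which leaves the differences as they are.

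Replicates with 3 values a class, unknown depth and an unstated signal scale limit these comparisons. Intervals over regions cover counting error only, and neighbouring regions share sequence and genes. The replicate lists also share many places, as 75.7% of the reproducible regions near non-coding RNA genes were found in at least 2 of them. SDs and permutation tests of site shares and GC content thus partly count the same sequence again. The nearest TSS is an address only.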
